A study of Mus musculus with 6 samples.

Results

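The genes described here are the peroxisome proliferator-activated receptors (Ppara, Ppard, Pparg), the retinoid X receptors (Rxra, Rxrb, Rxrg), the liver X receptors (Nr1h2, Nr1h3) and the PGC-1 coactivators (Ppargc1a, Ppargc1b). The 10 genes were chosen by name, with earlier results of these data known. Every probe set that the platform annotation assigns to one of them was taken. They have 18 probe sets, which represent 9 of the 18029 genes measured. Nr1h2 has no probe set of its own name here and was not analysed. Ppargc1a has 5 probe sets, Ppara and Rxra have 3 each, Ppard has 2, and each of the other 5 genes rests on 1.

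Liver RNA was measured on Affymetrix expression arrays in mice with floxed RECS1 alleles (RECS1-flox, control, n = 3) and in mice with hepatocyte-specific loss of RECS1 (RECS1-HKO, here HKO, n = 3). The RECS1 gene is listed as Tmbim1 in the array annotation and encodes a membrane protein. All animals were C57BL/6 mice that began a high-fat diet at 8 weeks of age, ate it for 8 weeks and were 16 weeks old, so that diet and age were shared by both groups and no animal on another diet is part of the comparison. Neither the Cre line behind the deletion, nor whether control animals carried Cre, nor the sex of the animals is stated in the labels. The submitters describe 3 biological samples for each genotype.

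The 3 PPARs and the 2 LXRs are nuclear receptors that bind DNA as heterodimers with an RXR. PPARs respond to fatty acids and their derivatives: PPARa drives fatty acid oxidation in the fasting liver, PPARg drives lipid uptake and storage and is best known from fat cells, and PPARd is expressed in most tissues. LXRs respond to oxysterols and switch on cholesterol export and fatty acid synthesis genes. PGC-1a and PGC-1b, encoded by Ppargc1a and Ppargc1b, bind such receptors and raise transcription of their targets, and in liver PGC-1a is induced by fasting.

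Values are log2 expression values. They order the arrays for 1 probe set. A level also depends on the probes, so levels of different probe sets are not read as relative abundance, and sums over marker genes are compared only between arrays. Array medians lay between 3.92 and 3.95, and 2 arrays of the same genotype correlated more closely (r across genes 0.9948 to 0.9964) than 2 of different genotypes (0.991 to 0.994). The 10 hepatocyte markers, among them Alb, Apoa1 and Ttr, had mean values between 10.4 and 13.6, and 0 of them passed the test (limma, 2 lower and 0 higher at an unadjusted p under 0.05). Tmbim1 fell from 7.65 ± 0.08 to 7.13 ± 0.07 (mean ± SD, n = 3 each; limma, adjusted p = 0.026), a call lost in each of the 6 fits that left out an array (adjusted p 0.065 to 0.0967). Where its probe set lies relative to the deleted part is not stated in the labels. Precision is limited by having 3 arrays a group.

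Of the 9 member genes, Pparg was higher in HKO liver and 0 were lower at a Benjamini-Hochberg adjusted p under 0.05 in limma. Among all 18029 genes 1.01% passed that test (0.560% higher, 0.449% lower). Before adjustment p was under 0.05 for 4 members (Pparg, Rxrg, Ppargc1b and Rxra), against 13.0% of all genes. The arrays of the groups did not overlap for 5 members (Pparg and Rxrg higher, Rxra, Nr1h3 and Ppargc1b lower), while the same held for 18.7% of all genes (8.58% higher, 10.1% lower). Tested probe set by probe set, 1 of 18 passed, again that of Pparg, against 0.702% of all 38195 probe sets (0.367% higher, 0.335% lower). As the members were chosen with earlier results known, these counts describe them and do not test enrichment.

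**Figure D1:**
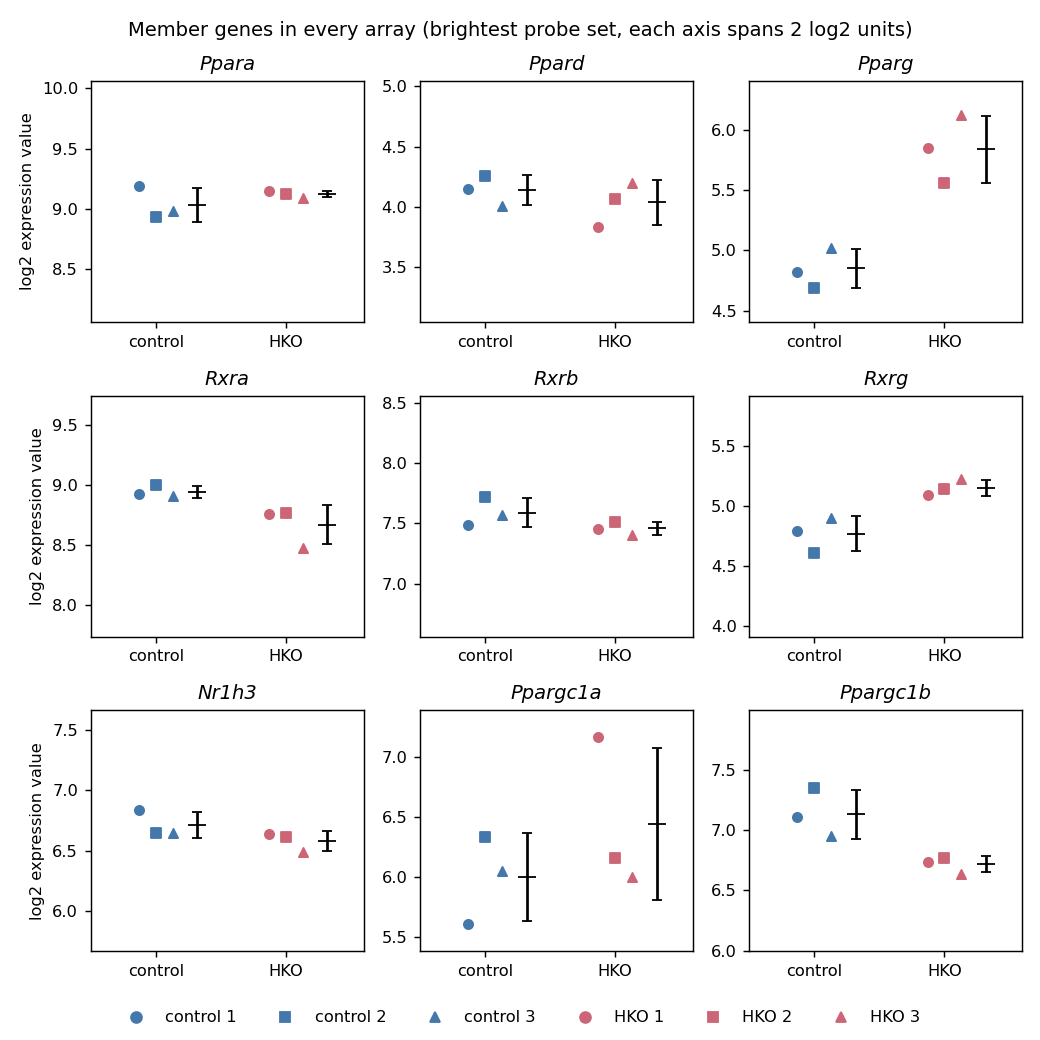
Log2 expression value (y axis) of each of the 9 member genes in 3 control arrays (blue) and 3 HKO arrays (red), with the group mean and SD in black beside the points. Pparg has all HKO arrays at 5.56 or above and all control arrays at 5.02 or below, and Ppargc1a spreads most widely within a group.

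Pparg, the lipid-storage receptor, stood at 4.82, 4.69 and 5.02 in control 1, 2 and 3 and at 5.85, 5.56 and 6.12 in HKO 1, 2 and 3. The lowest HKO array lay above the highest control array. The means were 4.85 ± 0.17 and 5.84 ± 0.28 (SD, n = 3 each). HKO liver thus held 2 times the control level, or 1.00 ± 0.15 on the log2 scale (SE, 95% interval 0.66 to 1.33; limma, adjusted p = 0.0246). Its probe set is brighter than 70.4% of all probe sets. With 1 array left out the fold change lay between 0.86 and 1.14. Only the fit without HKO 2 then passed (adjusted p = 0.0118), and the adjusted p was 0.0969, 0.0948, 0.0527, 0.115 and 0.0518 without control 1, control 2, control 3, HKO 1 and HKO 3.

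Mouse Pparg is transcribed from more than 1 start, and its single probe set, whose identifier ends in _a_at, the maker's mark for probes shared by transcripts of a gene, gives 1 value for them together. RefSeq lists 3 starts with promoters in the reference table (GRCm38.p6, plus strand). The 250 bases before each are shown because Pparg is the member that changed. Capitals mark AGGTCA, the hexamer that PPAR, RXR and LXR share, in either direction.
Pparg start 1, chr6:115360894-115361143: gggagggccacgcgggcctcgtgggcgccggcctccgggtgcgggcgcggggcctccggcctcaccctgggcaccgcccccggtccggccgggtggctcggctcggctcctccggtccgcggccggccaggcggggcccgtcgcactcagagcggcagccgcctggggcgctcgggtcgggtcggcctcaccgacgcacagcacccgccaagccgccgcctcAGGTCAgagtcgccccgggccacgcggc
Pparg start 2, chr6:115362099-115362348: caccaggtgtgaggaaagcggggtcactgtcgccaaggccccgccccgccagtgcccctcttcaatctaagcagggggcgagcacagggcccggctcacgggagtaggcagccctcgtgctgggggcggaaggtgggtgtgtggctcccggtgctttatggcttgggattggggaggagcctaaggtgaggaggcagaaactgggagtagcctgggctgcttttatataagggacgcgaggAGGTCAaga
Pparg start 3, chr6:115421816-115422065: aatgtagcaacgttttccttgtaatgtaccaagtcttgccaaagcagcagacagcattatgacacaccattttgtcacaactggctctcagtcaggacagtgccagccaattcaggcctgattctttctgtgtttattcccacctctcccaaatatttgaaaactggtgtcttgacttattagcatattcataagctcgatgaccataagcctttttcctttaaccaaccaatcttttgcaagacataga
The hexamer was present before the first start (28 to 23 bases upstream) and the second (9 to 4 bases upstream) and not in the window of the third. It occurs in 14% of the 32851 promoter windows of this length. Of the 15 windows of 9 members with an entry (Ppargc1b has none), 4 held it, the others being the second start of Rxra, with 2 copies, and that of Rxrg. Neither DR1 (AGGNCA repeated after 1 base, in 0.338% of all windows), read by PPAR with RXR, nor DR4 (AGGNCA repeated after 4 bases, 0.213%), read by LXR with RXR, nor TGACGTCA (the cAMP response element, 1.55%) or TGANTCA (AP-1, 6.75%) was found in a member window, on either strand. A DR1 or DR4 can hold the hexamer. These counts describe letters in short windows.

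Ppara, the oxidation receptor, was measured by 3 bright probe sets that gave nearly the same answer. The brightest read 9.19, 8.93 and 8.98 in the control arrays and 9.15, 9.12 and 9.09 in the HKO arrays, so that all HKO values lay inside the control range. Its log2 fold change was 0.09 ± 0.09 (95% interval -0.11 to 0.29), and the other probe sets stood at 0.12 and 0.10. The interval leaves room for a rise of 0.29 log2 units and for a fall of 0.11.

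Ppard had values of 4.15, 4.26 and 4.01 in control and of 3.83, 4.07 and 4.20 in HKO liver, with overlapping groups. The log2 fold change was -0.11 ± 0.11 (95% interval -0.36 to 0.15). Its other probe set stood at -0.02 ± 0.09.

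Rxra encodes the RXR that dominates in liver. Its brightest probe set read 8.92, 9.0 and 8.91 in control and 8.76, 8.77 and 8.48 in HKO liver, and the groups did not overlap. That difference was -0.27 ± 0.10 (95% interval -0.49 to -0.05; limma, adjusted p = 0.281) and did not pass. The probe sets of Rxra disagreed. The second, brighter than 82.4% of all probe sets, stood at -0.03 ± 0.08, and the third, at the dim end (brighter than 18.9%), at 0.15 ± 0.08. With the median of the probe sets in place of the brightest, the Rxra difference was -0.0261.

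Rxrb, a widely expressed RXR, gave 7.49, 7.72 and 7.57 in control and 7.45, 7.51 and 7.40 in HKO liver. The groups overlapped, with a difference of -0.13 ± 0.08 (95% interval -0.33 to 0.06).

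Rxrg, the RXR best known from muscle and brain, moved the other way. Its values were 4.79, 4.61 and 4.90 in control and 5.09, 5.14 and 5.22 in HKO liver, without overlap. The difference of 0.38 ± 0.09 (95% interval 0.17 to 0.59; limma, adjusted p = 0.136) did not pass the threshold over all genes. Of 5 skeletal muscle markers measured beside it 0 passed (limma, 0 also at an unadjusted p under 0.05), with differences between -0.11 and 0.01. Their summed linear level was 49 to 53.8 in control and 46.8 to 51.1 in HKO arrays. All 5 read below the median gene (4.69), so their flat values say little about muscle.

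Nr1h3, which encodes LXRa, the LXR of hepatocytes and macrophages, stood at 6.84, 6.65 and 6.65 in control and at 6.64, 6.61 and 6.49 in HKO liver. The groups touched without overlapping. The difference was -0.14 ± 0.08 (95% interval -0.33 to 0.06; limma, adjusted p = 0.561), within the spread of the arrays, and -0.0739 without control 1.

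**Figure D2:**
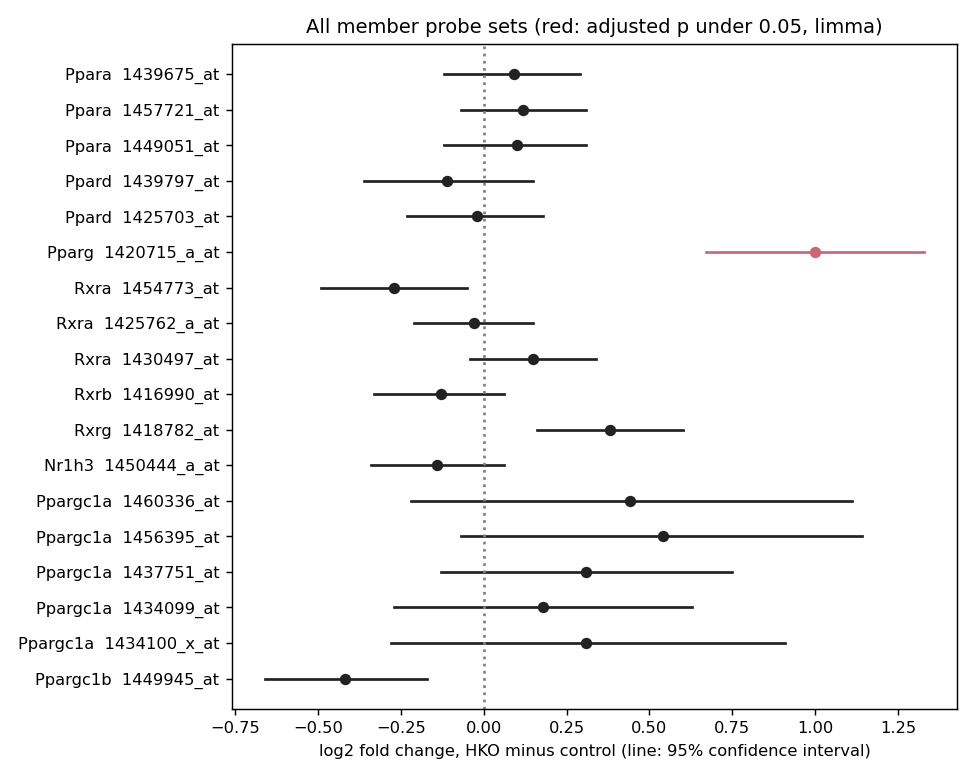
Log2 fold change (HKO minus control, x axis) of each of the 18 member probe sets with its 95% confidence interval. The Pparg probe set, in red, is the only one past the adjusted threshold, the 3 Ppara probe sets lie together near 0.10, and the 3 Rxra probe sets run from -0.27 to 0.15.

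The PGC-1 coactivators had opposite signs, and neither passed the test. Ppargc1b, which in liver coactivates lipid synthesis as well as oxidation genes, read 7.11, 7.35 and 6.95 in control and 6.74, 6.77 and 6.64 in HKO liver. All HKO arrays lay below all control arrays, with a difference of -0.42 ± 0.11 (95% interval -0.66 to -0.17; limma, adjusted p = 0.16). Leaving out 1 array moved it to between -0.508 and -0.31.

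Ppargc1a varied more between animals than between genotypes. Its brightest probe set stood at 5.61, 6.33 and 6.05 in control and at 7.16, 6.16 and 6.00 in HKO liver, and the difference of 0.44 ± 0.30 (95% interval -0.25 to 1.13) did not pass. Control 1 was the lowest and HKO 1 the highest array in 5 of 5 probe sets, whose fold changes ran from 0.18 to 0.54. Without HKO 1 the difference was 0.0826, and without control 1 it was 0.248. The pooled within-group SD of 0.51 exceeded that of 99.4% of genes (median gene 0.12), whereas Pparg exceeded 91.4% and Ppara 40.5%.

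Lpin1, a phosphatidate phosphatase that also acts as a coactivator of PPARa with PGC-1a, was picked from the coregulator list after its values were seen, as another gene with such a spread. Its brightest probe set stood at 9.62, 10.26 and 10.08 in control and at 10.37, 9.47 and 9.37 in HKO liver. HKO 1 was the highest array and control 1 the lowest control array in both of its probe sets. Unlike Ppargc1a, it was lower in HKO 2 and HKO 3 than in any control array.

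**Figure D3:**
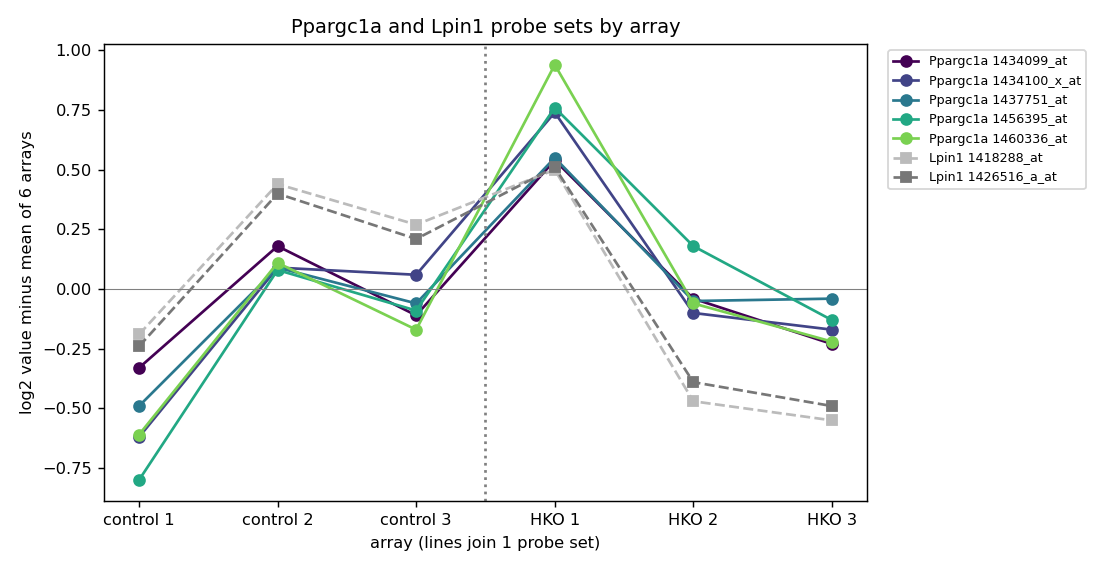
Deviation of each array from the mean of 6 arrays (log2 units, y axis) for the 5 probe sets of Ppargc1a (solid lines) and the 2 of Lpin1 (dashed lines), array by array. The 5 Ppargc1a lines share a low in control 1 (-0.80 to -0.33) and a high in HKO 1 (0.54 to 0.94).

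Members of a family were then compared within arrays, to ask whether they changed unequally. There were 7 such pairs, since Nr1h3 had no partner. The smallest p that an exact permutation test of 3 against 3 arrays can give is 0.1, and 0.14 after adjustment over the 7 pairs, so that no pair could pass. The fold change of Pparg exceeded that of Ppara by 0.91 ± 0.21 (SE) and that of Ppard by 1.10 ± 0.23 log2 units. That of Rxrg exceeded that of Rxra by 0.65 ± 0.17 (0.407 with the median of the Rxra probe sets) and that of Rxrb by 0.51 ± 0.16. That of Ppargc1a exceeded that of Ppargc1b by 0.86 ± 0.39. In these 5 pairs the within-array difference did not overlap between genotypes (two-sided exact permutation p = 0.1, adjusted 0.14), while Ppara against Ppard (0.19 ± 0.17, exact p = 0.4) and Rxra against Rxrb (-0.14 ± 0.08, exact p = 0.2) overlapped.

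Targets, partners and regulators were described in 8 lists of textbook genes, 4 of them targets of the receptors or coactivators. The lists were chosen with earlier results of these data known, so their shares describe the lists and do not test enrichment. The median log2 fold change of all genes was 0.00, and 1.01% of all genes passed. Targets of PPARa and PPARg held most of the changed genes. Of 26 measured PPARa targets 5 rose and 0 fell (19.2%), with a list median of 0.28. Of 19 measured PPARg targets 4 rose and 0 fell (21.1%), with a median of 0.23. The list a gene stands in does not show which receptor acted on it in these livers, and this was not tested.

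Among the PPARa targets, Ehhadh, the bifunctional enzyme of peroxisomal beta-oxidation, stood at 9.77, 9.87 and 9.80 in control and at 10.69, 10.60 and 10.75 in HKO liver (0.87 ± 0.08; limma, adjusted p = 0.00172). The other 4 that rose were the acyl-CoA thioesterases Acot3 (2.36 ± 0.23), Acot2 (0.99 ± 0.17) and Acot4 (0.87 ± 0.10), which release free fatty acids from CoA, and Vnn1, a pantetheinase (0.72 ± 0.10). The probe set of Acot3 can also bind related transcripts, as its identifier ends in _s_at, and the Acot genes are a family of near copies, so that the share of each is uncertain. The second probe sets of Acot2 (0.58) and Vnn1 (0.96) passed in the fit of all probe sets, and that of Acot4 (0.72, adjusted p = 0.115) did not. The remaining 21 targets lay between -0.42 (Angptl4) and 1.54 (Cyp4a14), and at an unadjusted p under 0.05 16 of the 26 were higher and 1, Angptl4, was lower. For Cyp4a14, a fatty acid omega-hydroxylase, the control arrays read 8.85, 10.13 and 10.57 against 11.39, 11.46 and 11.32 in HKO liver (adjusted p = 0.13). Without control 2 or HKO 1 the list had 2 genes past the threshold and without control 3 it had 3. Ehhadh and Acot3 passed in each fit with 1 array left out. Acot4 did not without control 2 (adjusted p = 0.0502) or HKO 1 (0.0551), Acot2 did not without control 1, 2, 3 or HKO 1 (0.113 to 0.154), and Vnn1 passed only without control 1 (0.0382).

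Ppara itself stood at 0.09, while 17 of these 26 targets had all HKO arrays above all control arrays, against 8.58% of all genes. Of the 26 targets 0 read below the median gene (4.69) by the mean over all 6 arrays, so all genes are not a background of like brightness. Acot3 and Acot4, with control means of 4.33 and 4.63, were below it in control liver.

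Among the PPARg targets, the fatty acid transporter Cd36 read 7.53, 7.03 and 6.93 in control and 8.83, 8.40 and 9.09 in HKO liver (1.61 ± 0.20; limma, adjusted p = 0.0113), and its other probe sets stood at 1.72 and 1.81. Mogat1, a monoacylglycerol acyltransferase, read 5.41, 4.55 and 4.51 against 6.98, 6.95 and 7.55 (2.34 ± 0.26, adjusted p = 0.00554). Vldlr, a lipoprotein receptor, rose from a mean of 3.95 to 4.89 in its brightest probe set (0.94 ± 0.09). Its other 5 ran from 0.28 to 2.01, 3 of them past the threshold in the fit of all probe sets. These 5 were dim, with control means between 1.89 and 3.03. Plin4, a lipid droplet coat protein, rose from 5.75 ± 0.49 to 7.06 ± 0.22 (1.31 ± 0.23, adjusted p = 0.0457). The droplet proteins Cidea (2.95 ± 0.54, adjusted p = 0.0549) and Cidec (1.71 ± 0.40, adjusted p = 0.115) and the fatty acid binding protein Fabp4 (0.80 ± 0.19, adjusted p = 0.135) did not pass, although their arrays did not overlap. Of the 19 measured targets 10 had all HKO arrays above all control arrays, against 8.58% of all genes. By the mean over all 6 arrays 5 of the 19 read below the median gene (4.69), so here too all genes are not a background of like brightness. Cidea, Cidec and Vldlr, with control means of 4.15, 4.03 and 3.95, were below it in control liver. The contrast does not test enrichment. The adipokine gene Adipoq stood at -0.08, with 1.76 in control and 1.68 in HKO liver. Without control 3 or HKO 1 the list had 2 genes past the threshold. Vldlr and Mogat1 passed in each fit with 1 array left out, Cd36 did not without control 2 (adjusted p = 0.0608), control 3 (0.0539) or HKO 1 (0.0781), and Plin4 passed only without control 2 (0.0396).

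**Figure D4:**
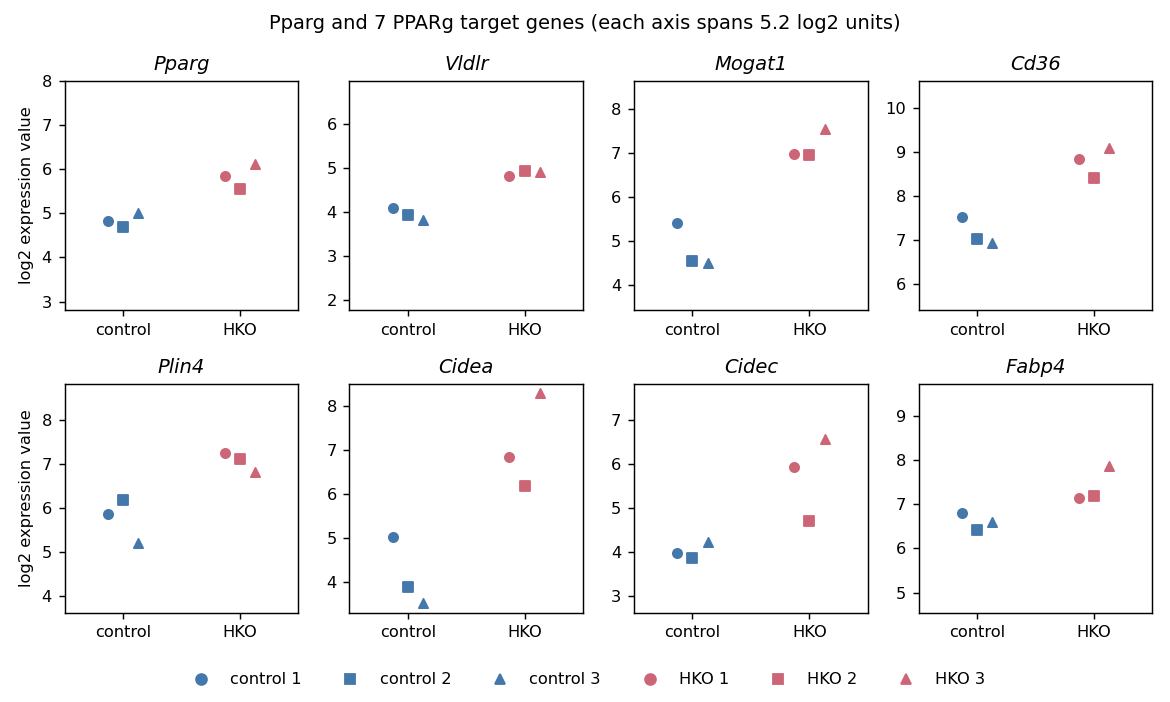
Log2 expression value (y axis) of Pparg and 7 genes listed as PPARg targets in 3 control (blue) and 3 HKO (red) arrays. The 7 are among the 10 of 19 measured targets whose HKO arrays all lay above all control arrays, and targets with overlapping groups are not shown. In all 8 genes every HKO array lies above every control array, and HKO 3 is the highest array for Pparg, Mogat1, Cd36, Cidea, Cidec and Fabp4 but not for Vldlr or Plin4.

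Pparg is a receptor of fat cells and macrophages as well as hepatocytes, and markers of these cells were read beside it. In bulk liver fewer cells of a type and less RNA per cell cannot be told apart. Of 4 measured adipocyte markers 0 passed (limma, 1 at an unadjusted p under 0.05), and Adipoq and Lep, which define fat cells, averaged 1.76 and 2.67 in control and 1.68 and 2.61 in HKO liver. The summed linear level of the 4 was 121 to 146 in control and 174 to 273 in HKO arrays, and without Fabp4, also a PPARg target, it was 33.9 to 35.9 and 32.2 to 38.3. Fabp4 was the marker at an unadjusted p under 0.05 (0.80 ± 0.19). The other 3 read below the median gene (4.69), so their sum says little about fat cells. None of 10 Kupffer cell and macrophage markers passed (0 also at an unadjusted p under 0.05), with summed levels of 3230 to 4750 in control and 3790 to 4320 in HKO arrays and single differences between -0.18 and 1.03 (Marco). The same count of 0 held for 7 stellate cell, 7 endothelial and 5 lymphocyte markers, whose summed ranges overlapped between genotypes. Of the 5 lymphocyte markers 4 read below the median gene.

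The 5 genes whose 6 array values, taken from their own control mean, lay nearest to those of Pparg by Euclidean distance were Nqo1, a quinone reductase (distance 0.242), Rab30, a small GTPase (0.275), Acot4 (0.32), Igfbp1, an insulin-repressed binding protein (0.343), and Acot2 (0.346). They were drawn from 9013 other genes whose mean over all 6 arrays lay above the median gene (4.69). Nqo1 and Acot4, each with a control mean of 4.63, were below it in control liver and entered through their HKO values. Nqo1 stood at 4.54, 4.61 and 4.76 in control and at 5.60, 5.27 and 6.07 in HKO liver. These genes were chosen for lying near Pparg over all 6 arrays, so a rise was part of the choice and is not tested here. The differences were 1.01 ± 0.18 for Nqo1, 1.04 ± 0.13 for Igfbp1 and 1.06 ± 0.10 for Rab30. Acot4 and Acot2 are among the PPARa targets above.

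Cd36 and Acot4 are shown because they are the risen PPAR targets whose promoter windows held the hexamer. It was in 2 of 10 windows from 8 of the 9 risen genes, against 14% of all windows. TGANTCA was in 1 of the 10, against 6.75% of all windows. The windows of the 2 Acot3 starts overlap almost entirely, so the 10 are not separate sequences. Capitals mark AGGTCA, or TGACCT where it reads on the other strand, and in Acot4 also TGANTCA.
Cd36, chr5:17835897-17836146, minus strand: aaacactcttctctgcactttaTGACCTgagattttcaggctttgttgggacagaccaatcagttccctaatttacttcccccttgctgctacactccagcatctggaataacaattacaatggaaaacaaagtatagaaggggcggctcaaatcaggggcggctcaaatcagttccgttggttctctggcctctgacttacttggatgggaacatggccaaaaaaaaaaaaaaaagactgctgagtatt
Acot4, chr12:84038129-84038378, plus strand: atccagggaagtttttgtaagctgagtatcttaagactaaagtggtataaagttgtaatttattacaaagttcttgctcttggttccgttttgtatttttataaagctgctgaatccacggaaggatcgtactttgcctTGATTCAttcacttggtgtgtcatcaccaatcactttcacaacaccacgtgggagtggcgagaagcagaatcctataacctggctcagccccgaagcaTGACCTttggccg
No DR1 or DR4 as spelled above was found in the windows of these genes.

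Targets of the LXRs and of the PGC-1 coactivators did not pass. Of 18 measured LXR targets 0 passed (limma, 2 higher and 2 lower at an unadjusted p under 0.05), with a median of 0.17. The signs were mixed among the lipid synthesis regulators: Srebf1, which encodes SREBP-1, stood at 0.34 ± 0.11 (adjusted p = 0.246) and Mlxipl, which encodes ChREBP, at -0.35 ± 0.08 (adjusted p = 0.118). The sterol exporter Abcg1 stood at 0.19 ± 0.08, and Abca1, Abcg5 and Abcg8 at -0.09, 0.19 and -0.02. Cyp7a1, the rate-limiting enzyme of bile acid synthesis, stood at -0.61 ± 0.18 (adjusted p = 0.2), and passed without HKO 1 (-0.827, adjusted p = 0.0429). The second Cyp7a1 probe set stood at -0.34 ± 0.21, with overlapping groups.

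Of 21 measured PGC-1 targets 0 passed (limma, 3 higher and 1 lower at an unadjusted p under 0.05), with a median of 0.12. G6pc, the last enzyme of glucose release, stood at 0.36 ± 0.09 (adjusted p = 0.135), Acadm, a mitochondrial acyl-CoA dehydrogenase, at 0.26 ± 0.07, and the mitochondrial transcription factors Tfam and Tfb1m at 0.31 ± 0.10 and -0.26 ± 0.08. The second probe set of Tfam stood at 0.04 and that of Tfb1m at -0.2, each with overlapping groups.

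Of 18 other coregulators 0 passed (limma, 0 higher and 4 lower at an unadjusted p under 0.05), with a median of -0.05. Nr0b2, the orphan receptor SHP that represses other nuclear receptors, read 8.76, 8.45 and 8.45 in control and 7.73, 8.14 and 7.72 in HKO liver (-0.69 ± 0.14, adjusted p = 0.0703), and passed without HKO 2 (-0.826, adjusted p = 0.0275). The coactivator Cited2 stood at -0.50 ± 0.12, the steroid receptor coactivator Ncoa3 at -0.31 ± 0.09 and Tbl1xr1, a subunit of the NCoR corepressor complex, at -0.26 ± 0.09. In the fit of all probe sets 1 of the 4 probe sets of the coactivator Ncoa2 fell (-0.52 ± 0.09, adjusted p = 0.0468), while its brightest stood at 0.06.

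Of 11 other RXR partners or related receptors 1 rose (9.09%). Nr4a1, an immediate early receptor, rose by 1.01 ± 0.15 (limma, adjusted p = 0.0249), but did not pass in any fit that left out 1 array other than HKO 2. Nr1i3, the xenobiotic receptor CAR, stood at 0.52 ± 0.10 (adjusted p = 0.0616), and passed without control 1 (0.617, adjusted p = 0.0322). The bile acid receptor Nr1h4 stood at 0.14 ± 0.08 and the retinoic acid receptor Rarb at 0.27 ± 0.18. Of the 6 probe sets of Nr4a2, a relative of Nr4a1, 1 rose in the fit of all probe sets (0.63 ± 0.10, adjusted p = 0.0312), and its brightest stood at 0.12.

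Among 18 genes that make, clear or carry ligands 1 fell (5.56%). Cyp7b1, which hydroxylates oxysterols, read 11.34, 11.45 and 11.31 in control and 9.36, 10.29 and 9.17 in HKO liver (-1.76 ± 0.25; limma, adjusted p = 0.022). Of the fits with 1 array left out it passed only in that without HKO 2. Cyp26b1, which clears retinoic acid, stood at -0.82 ± 0.16 (adjusted p = 0.0616), and Cyp27a1, which makes an oxysterol ligand of LXR, at -0.23 ± 0.08. Of 16 factors known to act upstream of Pparg or Ppargc1a, 1 rose (6.25%): the AP-1 subunit Jun, from 5.97 ± 0.08 to 7.30 ± 0.21 (1.33 ± 0.11; limma, adjusted p = 0.00163), which also passed in each fit with 1 array left out. Fos stood at 0.56 ± 0.19 (adjusted p = 0.261), the repressor Hes1 at -0.46 ± 0.11 and the clock receptor Nr1d1 at -0.53 ± 0.13. Hnf4a, Cebpa, Creb1 and Foxo1 stood at -0.28, 0.00, -0.03 and -0.19. The probe sets of Hnf4a disagreed, as those other than the brightest stood at 0.21, -0.18 and 0.06.

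**Figure D5:**
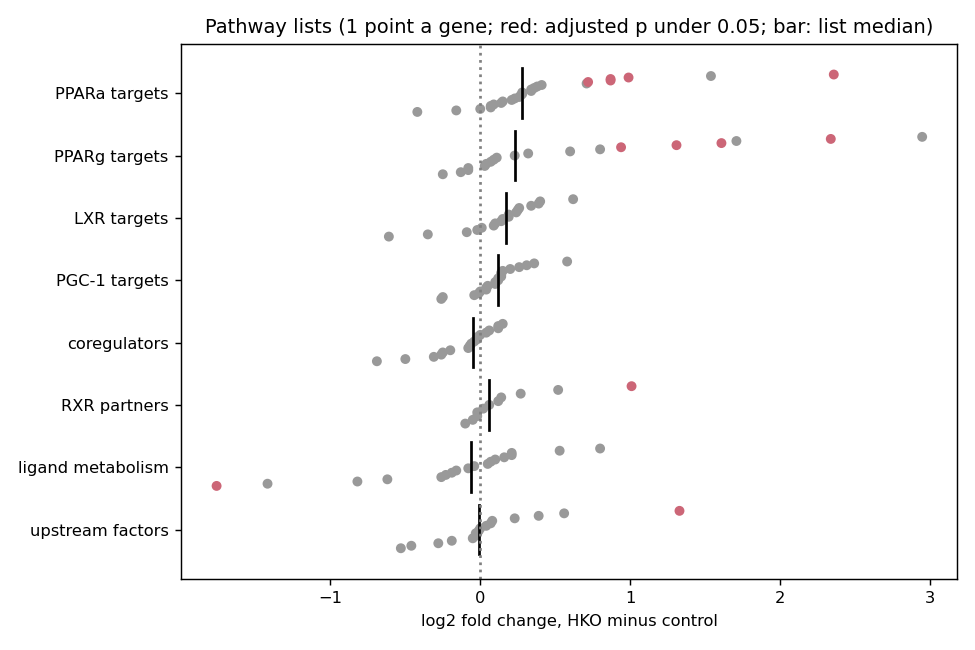
Log2 fold change (HKO minus control, x axis) of every measured gene of the 8 lists, 1 point a gene, with genes past the adjusted threshold in red and the list median as a bar. The red points are 5 PPARa targets, 4 PPARg targets, Nr4a1, Cyp7b1 and Jun.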

How the data were processed

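Liver RNA (400 ng total RNA a sample) was hybridised to Affymetrix arrays, and the authors deposited log2 expression values for 38208 probe sets. RMA and limma are named in the submitters' processing notes, with no version or setting given. RMA makes the arrays share 1 distribution, so a shift common to most genes would be removed. Of 38195 probe sets that are not Affymetrix controls, 34325 have 1 gene symbol in the platform annotation, 62 several and 3808 none; the last 2 kinds were left unnamed. Each of 18029 genes was represented by its brightest probe set over 6 arrays. HKO was compared with control in limma 3.58.1 (R 4.3.3; lmFit, eBayes) with Benjamini-Hochberg adjustment over all genes, or over all probe sets, at 0.05. Differences within a family used an exact permutation test; 7 pairs could be formed instead of the 8 planned, as Nr1h2 had no probe set. The code was tested on simulated data.

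The text names all members, from each list every gene past the threshold, filled up to 4 by lowest p, and the 5 genes nearest to Pparg; other genes named, such as Lpin1, Cyp4a14, Cidea, Ncoa2, Nr4a2 and Hnf4a, were chosen after their values were seen. Members and lists were chosen with earlier results of these data known. Same-numbered arrays were not paired, as the labels do not state that the numbers are shared between genotypes. The correlations of their deviations from the group means were -0.09, 0.07 and 0.11, which cannot show whether a pairing exists. Promoters are RefSeq's (GRCm38.p6), searched over the 250 bases before each start. Alternatives were quantile normalization, aligned medians, a filter on dim features, other choices of probe set, eBayes with trend and robust, array weights, a replicate block and leaving out each array.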

Additional observations from a re-analysis of the deposited data

How the results depend on the processing

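Pparg kept its direction in every alternative run. It passed in the 8 that kept all arrays (adjusted p 0.0094 to 0.0251, the lowest with the replicate block) and in 1 of 6 that left out an array (log2 fold change 0.86 to 1.14), so that the count of members, by gene or by probe set, was 0 to 1 there. Tmbim1 was -0.52 with an adjusted p of 0.0828 under the replicate block and -0.554 to -0.475 with an array left out, where it passed in 0 of 6 fits (adjusted p 0.065 to 0.0967). The sign of Rxra minus Rxrb turned to 0.108 with the median of the probe sets. The total over the lists (12) was 11 to 16 in the alternatives with all arrays and 6 to 13 with an array left out. With an array left out the counts were 2 to 5 for PPARa targets, 2 to 5 for PPARg targets, 0 to 1 for LXR targets, 0 to 1 for coregulators, 0 to 1 for RXR partners and 0 to 1 for ligand genes. With trend and robust eBayes PGC-1 targets had 1 (G6pc), coregulators 1 (Nr0b2) and RXR partners 2. The filter on dim features gave 2 RXR partners and 2 ligand genes, and aligned medians and the replicate block each gave 2 ligand genes. Vnn1 did not pass under the block (adjusted p = 0.0546), nor Plin4 under quantile normalization (0.0502), trend and robust eBayes (0.0953) or array weights (0.053), nor Cyp7b1 under trend and robust eBayes (0.0996). Over all genes 81 were lower, against 122 with the dim filter, 126 with trend and robust eBayes and 53 with the block. With an array left out 46 to 94 were higher (101 with all arrays) and 32 to 67 lower. The causes were not tested; fewer arrays leave fewer degrees of freedom, and 3 arrays a group limit the precision throughout.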
